A study of Mus musculus with 223 samples.

Results

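Immediate early and stress response genes were followed through single interneurons of the developing mouse cortex. The genes were taken from a list: Fos, Fosb, Jun, Junb, Jund, Egr1, Ier2, Atf3, Hspa1a and Hspa1b, 10 of the 43629 genes in the count table, each matched to 1 Ensembl gene. The cells were interneurons sorted for GFP from the whole cortex of transgenic mice of both sexes on a C57BL/6 background, in which regulatory sequences of Htr3a (a serotonin receptor subunit of interneurons from the caudal ganglionic eminence) drive the reporter. There were 82 cells at E18, shortly before birth, which the labels put in no type. The P2 cells numbered 66 and carried the label type 1 (22 cells), type 2 (31 cells) or type 3 (13 cells). The P5 cells numbered 75, with 34, 19 and 22 cells under the same labels. The study formed the types by clustering these same cells, so a difference between types describes the clusters and is no test.

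The cells of each age came from pooled brains that the labels do not tell apart, so there was no biological replicate. Intervals below (exact, 95%) cover counting error only. The study captured E18 and P5 cells on more chips than P2 cells, and the labels do not state the chip. Tissue handling changed with age: E18 and P2 cortices were digested with Pronase in the warm for a short time, and P5 cortices at room temperature for longer in oxygenated artificial cerebrospinal fluid. P5 and its dissociation cannot be told apart here. The libraries carry 4 set labels, called sets A to D in this text, whose meaning was not given: set A held every P2 cell and no other, so P2 and set A cannot be told apart either, while E18 and P5 cells were spread over sets B, C and D. Each cell had 3707600 to 15840100 mapped read pairs (median 9463030), and levels are RPM, read pairs scaled to mapped read pairs by the deposited coefficient of each cell.

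Immediate early genes are transcribed within minutes of a stimulus, without new protein synthesis, when calcium, growth factor or stress signals switch on factors already bound at their promoters. In neurons they are known as markers of recent activity, and the same genes respond to the enzymes and heat used to take tissue apart. Fos and Fosb pair with Jun, Junb or Jund to form the AP-1 transcription factor, Egr1 and Atf3 are DNA-binding factors of their own, Ier2 is a small nuclear protein of the same early wave, and Hspa1a and Hspa1b encode the inducible chaperone Hsp70.

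The members lie apart in the genome except for the Hsp70 pair. On GRCm38 with the GENCODE M21 annotation, Fos is at chr12:85473890-85477273, Jun, a gene of 1 exon, at chr4:95049034-95052222, and Fosb at chr7:19302696-19310051. Jund, Ier2 and Junb share chromosome 8 at distant positions, at chr8:70698949-70700616, chr8:84661331-84662852 and chr8:84974484-84978718. Atf3 is at chr1:191170296-191218039. Hspa1b (chr17:34956436-34959238) and Hspa1a (chr17:34969190-34972156) are neighbours on the minus strand.

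Promoter windows of RefSeq (GRCm38.p6, 250 bases before the transcription start and 50 after it) were given for 8 of the 10 genes. Egr1 and Ier2 had none. The 120 bases before the start are shown for 5 members so that the letters shared by AP-1 genes and Atf3 can be compared. Capitals mark TGACG (the core of the cAMP response element, on either strand), TGACATCA (the AP-1 and ATF site of the Jun promoter) and TATAA.
Fos: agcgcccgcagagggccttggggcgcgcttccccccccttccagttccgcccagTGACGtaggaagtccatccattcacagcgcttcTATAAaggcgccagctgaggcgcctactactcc
Fosb: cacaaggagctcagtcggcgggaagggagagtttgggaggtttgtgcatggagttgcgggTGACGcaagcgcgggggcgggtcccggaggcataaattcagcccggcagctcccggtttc
Jun: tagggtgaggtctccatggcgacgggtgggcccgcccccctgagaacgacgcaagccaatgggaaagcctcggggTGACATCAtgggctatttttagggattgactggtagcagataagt
Junb: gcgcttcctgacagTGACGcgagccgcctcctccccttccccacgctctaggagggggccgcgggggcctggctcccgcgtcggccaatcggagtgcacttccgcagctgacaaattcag
Atf3: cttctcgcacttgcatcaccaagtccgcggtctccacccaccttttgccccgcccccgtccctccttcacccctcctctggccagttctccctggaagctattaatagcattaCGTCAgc

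The shown stretches run from chr12:85473770-85473889 on the plus strand for Fos, and on the minus strand chr7:19310046-19310165 for Fosb, chr4:95052223-95052342 for Jun, chr8:84978749-84978868 for Junb and chr1:191183334-191183453 for Atf3. TGACG stood in 4 of the 8 member windows (Fos, Fosb, Junb and Atf3), against 20.8% of all 32851 promoter windows of the same length. In Fos it began 66 bases before the start, with another copy at 129 bases, and in Fosb 60 bases before it. TGACATCA stood in 1 of 8, in Jun from 45 to 38 bases before the start, against 3.62% of all windows. TATAA was in 2 of 8 (in Junb only from the start itself onward) against 24.9%, and the full element TGACGTCA and the CArG box of serum response factor were in none of the 8, against 1.79% and 1.63%. All motifs were searched on both strands, and TGACG is part of TGACGTCA. A match is a description of the letters. Sites outside the windows, and those of Egr1 and Ier2, were not searched, so an absence holds for these windows only.

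The Hsp70 promoters are shown because the pair is nearly the same in sequence. Capitals mark GAANNTTC, a pair of the units bound by heat shock factor, from 104 to 97 bases before the start.
Hspa1a: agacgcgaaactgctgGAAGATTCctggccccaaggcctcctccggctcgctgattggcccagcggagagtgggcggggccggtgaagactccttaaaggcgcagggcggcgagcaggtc
Hspa1b: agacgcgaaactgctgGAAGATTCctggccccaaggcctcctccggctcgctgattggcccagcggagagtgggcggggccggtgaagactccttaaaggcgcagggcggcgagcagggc

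These stretches are chr17:34972157-34972276 and chr17:34959239-34959358, both on the minus strand, and over the 250 bases before the start the pair differed at 3. GAANNTTC was in 3 of the 8 member windows (Hspa1a, Hspa1b and Jun) against 7.86% of all. In the transcripts, 1716 stretches of 50 bases were common to Hspa1a and Hspa1b, and 66.3% of such stretches of Hspa1a and 62.3% of those of Hspa1b also occurred in another gene, so low counts of the pair are uncertain: how read pairs that fit several genes were counted is not given in the sources used here. Jund is uncertain for a like reason, since 48.3% of its stretches overlap Gm11175 on the opposite strand, a gene with 0 read pairs in all cells. For Jun and Junb the shared part was 5.83% and 5.76%, and for Fos, Fosb, Egr1, Ier2 and Atf3 it was 0.

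Fos, which binds DNA as AP-1 only together with a Jun partner, was above 10 RPM in 128 cells of the whole data. It passed this threshold in 48 of 82 cells at E18 (58.5%, interval 47.1 to 69.3%). At P2 it did so in 13 of 22 type 1 cells (59.1%), 25 of 31 type 2 cells (80.6%, 62.5 to 92.5%) and 10 of 13 type 3 cells (76.9%). At P5 it did so in 21 of 34 type 1 cells (61.8%, 43.6 to 77.8%), 8 of 19 type 2 cells (42.1%, 20.3 to 66.5%) and 3 of 22 type 3 cells (13.6%, 2.91 to 34.9%).

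In P5 type 3 the share of Fos cells was the lowest of the 7 groups. Cells of every group ran from at or near 0 to 502 RPM or more. The median and highest cell were 30.8 and 1978 RPM at E18, 109 and 3005 in P2 type 1, 243 and 2570 in P2 type 2, and 124 and 3848 in P2 type 3. They were 45.2 and 2232 RPM in P5 type 1, 0.899 and 9171 in P5 type 2, and 0.181 and 502 in P5 type 3. The median cell was thus above the threshold at E18, in all P2 types and in P5 type 1, and below it in P5 types 2 and 3.

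Pooled over the cells of a group, the Fos level was 243 RPM at E18, 431, 465 and 434 RPM in P2 types 1, 2 and 3, and 513, 862 and 35.3 RPM in P5 types 1, 2 and 3. The high value of P5 type 2 rested on 1 cell with 58.2% of its Fos read pairs, and without that cell the level was 381 RPM. In P5 type 3, 59% of the read pairs were in 1 cell and the level without it was 15.1 RPM.

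**Figure D1:**
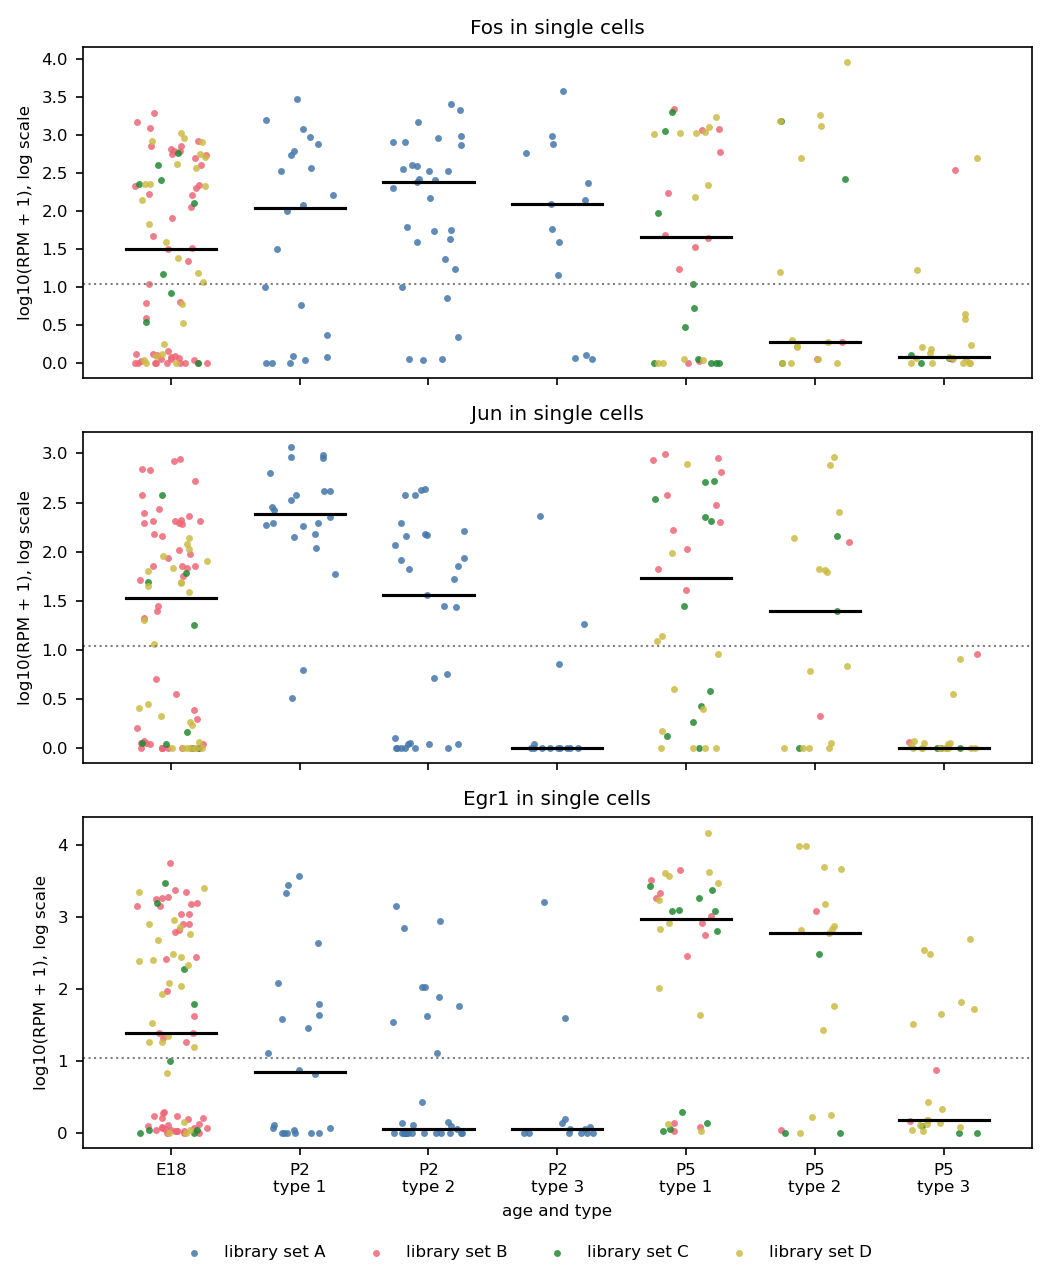
Fos, Jun and Egr1 in every cell, as log10(RPM + 1) on the vertical axis against age and type, coloured by library set, with a black bar at the median cell and a dotted line at 10 RPM. Cells spread from 0 to well above the line in most groups, and all 22 P5 type 3 cells lie under the line for Jun.

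Jun, the AP-1 partner that can also pair with itself, ran from nearly all cells of P2 type 1 to none of P5 type 3. At E18 it was above 10 RPM in 47 of 82 cells (57.3%, 45.9 to 68.2%). At P2 it was above the threshold in 20 of 22 type 1 cells (90.9%, 70.8 to 98.9%), 18 of 31 type 2 cells (58.1%, 39.1 to 75.5%) and 2 of 13 type 3 cells (15.4%, 1.92 to 45.4%). At P5 it was so in 21 of 34 type 1 cells (61.8%), 10 of 19 type 2 cells (52.6%) and 0 of 22 type 3 cells (interval 0 to 15.4%).

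The median cell had 243 RPM of Jun in P2 type 1 (highest 1154), 35.5 in P2 type 2 (highest 434) and 0 in P2 type 3 (highest 232). At P5 the median was 52.8 RPM in type 1 (highest 991), 23.6 in type 2 (highest 925) and 0 in type 3, where the highest of the 22 cells reached 8.10 RPM. At E18 the median was 32.4 RPM and the highest 877. Pooled over cells, the Jun level was 108 RPM at E18, 361, 97.2 and 17.8 RPM over P2 types 1 to 3, and 224, 138 and 0.829 RPM over P5 types 1 to 3. Of the Jun read pairs of P2 type 3, 91.0% were in 1 cell, and the level without it was 1.71 RPM.

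The library sets moved with Jun within P5 type 1. Jun was above 10 RPM in 11 of 11 cells of set B (interval 71.5 to 100%), 6 of 11 of set C and 4 of 12 of set D (9.92 to 65.1%), and the pooled levels were 419, 181 and 86.3 RPM. The set D level was 15.2 RPM without its highest cell. At E18 sets B, C and D had Jun at 151, 68.6 and 35.1 RPM and above the threshold in 30 of 48, 4 of 9 and 13 of 25 cells. Without its highest cell E18 set C was at 15.2 RPM, below set D, so only the lead of set B was shared. What the sets contribute was not tested, because their meaning was not given.

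Egr1, a zinc finger factor downstream of the growth factor and calcium pathways, was the member with the highest pooled level per kilobase of exon in E18 and in all P5 types, at 112 RPM per kb at E18 and 401, 398 and 16.8 RPM per kb in P5 types 1 to 3. Fos followed with 104 RPM per kb at E18 and 218, 366 and 15.0 RPM per kb in the P5 types. In the P2 types Fos was first, at 183 to 198 RPM per kb, and Egr1 stood at 90.8, 23.8 and 26.5 RPM per kb. Jun followed them at E18 (33.7 RPM per kb) and second in P2 types 1 and 2 (113 and 30.5 RPM per kb). The order is that of pooled levels, and the median cell gave another in some groups. The median E18 cell had more Fos (30.8 RPM, over 2352 bases of exon) than Egr1 (23.9 RPM, over 4484 bases), and the median P2 type 1 cell had more Jun (243 RPM, over 3189 bases) than Fos (109 RPM).

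Egr1 was above 10 RPM in 48 of 82 E18 cells (58.5%, 47.1 to 69.3%). Over P2 types 1 to 3 it passed in 45.5%, 32.3% and 15.4% of cells (10 of 22, 10 of 31 and 2 of 13). Over P5 types 1 to 3 it passed in 73.5% (25 of 34 cells, interval 55.6 to 87.1%), 68.4% (13 of 19, 43.4 to 87.4%) and 31.8% (7 of 22, 13.9 to 54.9%).

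The median cell of P5 type 1 had 935 RPM of Egr1 and that of P5 type 2 had 614 RPM, while the median cell was at 0.555 RPM in P5 type 3, 23.9 RPM at E18, and 6.16, 0.135 and 0.147 RPM in P2 types 1, 2 and 3. The highest cell reached 15011 RPM in P5 type 1 and 496 RPM in P5 type 3. Pooled levels were 502 RPM at E18, 407, 107 and 119 RPM over the P2 types, and 1798, 1785 and 75.5 RPM over the P5 types. Without the highest cell of each, the P2 types were at 252, 64.1 and 4.18 RPM. In P2 type 3, 96.7% of the Egr1 read pairs came from that cell. Over the 10 genes and 7 groups, 60 of 70 pooled levels moved beyond their counting interval without the highest cell. Within set D, which held most P5 cells of types 2 and 3, Egr1 passed 10 RPM in 10 of 12, 11 of 14 and 7 of 17 cells of types 1 to 3.

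The remaining AP-1 members were sparser. Fosb, the slower Fos relative, passed 10 RPM in 23 of 82 E18 cells, in 3 of 22, 5 of 31 and 1 of 13 cells of P2 types 1 to 3, and in 9 of 34, 4 of 19 and 1 of 22 cells of P5 types 1 to 3. Junb, a Jun relative that can oppose Jun at shared targets, passed it in 10 of 82, then in 5 of 22, 1 of 31 and 2 of 13, and then in 8 of 34, 2 of 19 and 0 of 22 cells. The 22 P5 type 3 cells held 0 read pairs of Junb, where 3 read pairs would be a pooled level of 0.0173 RPM.

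Junb stood at 48.1 RPM in P5 type 1, where sets B, C and D had 8.58, 0.424 and 128 RPM and set D held 6 of the 8 cells. The other groups lay between 0 and 28.1 RPM, the highest being P2 type 3 with 7.22 RPM without its highest cell. Jund, the Jun relative that is transcribed without a stimulus, was low wherever it was measured, with pooled levels from 2.30 RPM in P2 type 1 to 10.4 RPM in P5 type 1 and 8.76 RPM at E18. Its cells above 10 RPM were 26 of 82 at E18, 1 of 22, 10 of 31 and 3 of 13 over P2 types 1 to 3, and 9 of 34, 3 of 19 and 1 of 22 over P5 types 1 to 3. Jund thus ran the other way from Jun in P2 type 1, where Jun was found in 20 of 22 cells and Jund in 1 of 22.

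Ier2 and Atf3 were concentrated in few cells. Ier2 was above 10 RPM in 19 of 82 E18 cells, 8 of 22 P2 type 1 cells (36.4%, 17.2 to 59.3%), 2 of 31 P2 type 2 and 0 of 13 P2 type 3 cells, and in 8 of 34, 3 of 19 and 0 of 22 cells of the P5 types. Its pooled level was 62.5 RPM in P2 type 1, 42.5 in P5 type 1, 20.1 at E18, 18.8 in P5 type 2 and 2.64 or less in the other 3 groups. Without the highest cell it was 40.6 RPM in P2 type 1 and 7.25 RPM in P5 type 2. By library set, Ier2 passed in 3 of 15, 0 of 17 and 8 of 43 P5 cells of sets B, C and D. Atf3, a factor induced by injury and by the integrated stress response, was above 10 RPM in 6 of 22 P2 type 1 cells (27.3%, 10.7 to 50.2%), in 5 of 82 E18 cells, and in 1 cell each of P2 type 2 and P5 type 2.

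The pooled Atf3 level was 101 RPM in P2 type 1, where the highest cell had 1419 RPM and 66.2% of the read pairs, and 35.8 RPM without it. Atf3 read pairs were found in 1 of 34 P5 type 1 cells and 0 of 22 P5 type 3 cells. Hspa1a passed 10 RPM in 1 E18 cell (15.5 RPM) and 1 P2 type 1 cell (104 RPM), and Hspa1b in 1 E18 cell (33.5 RPM) and 1 P5 type 3 cell (74.6 RPM). Over all ages, 2 cells passed for each (0.897%, 0.109 to 3.20%).

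**Figure D2:**
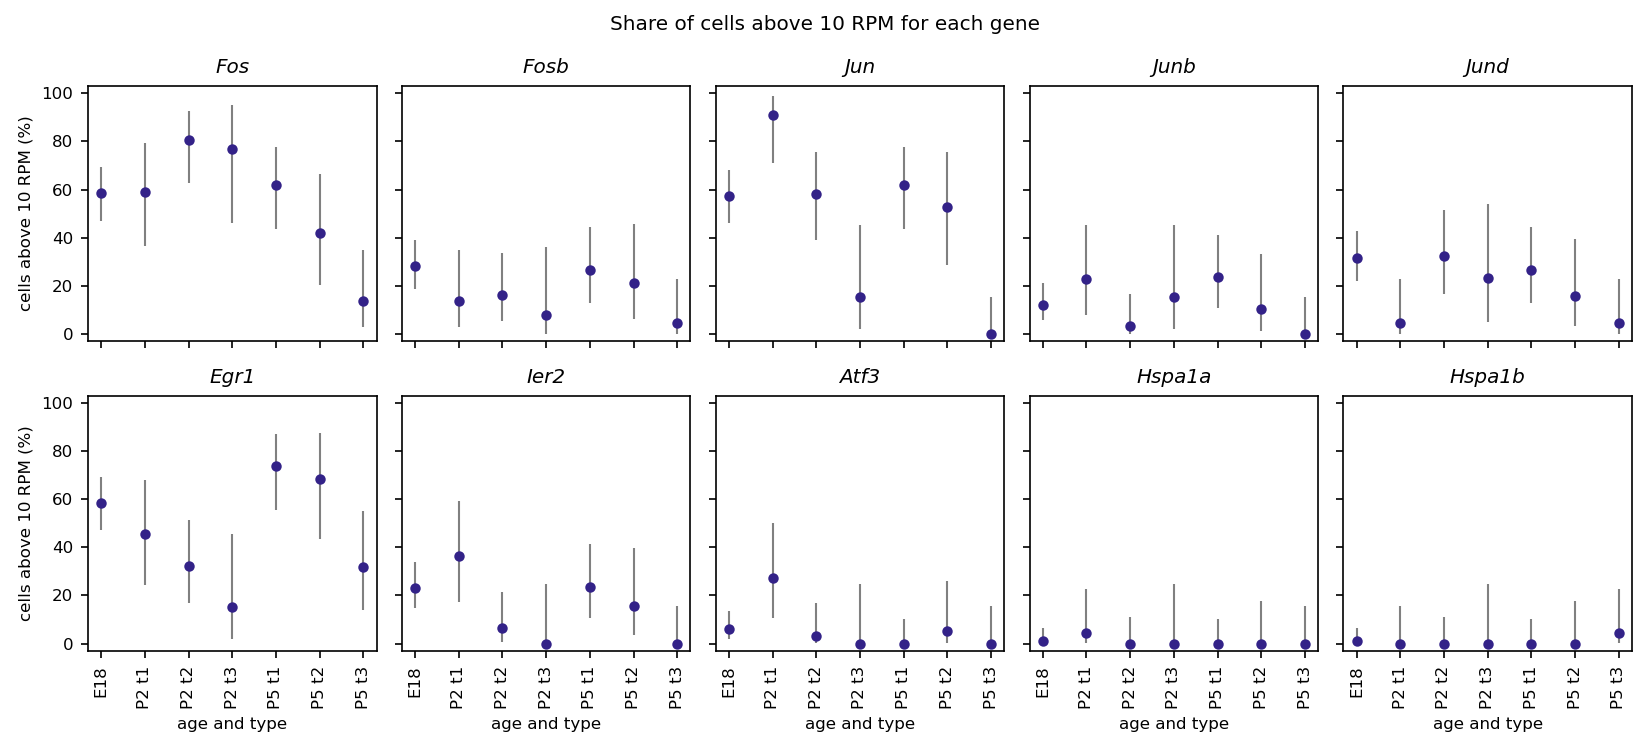
Share of cells above 10 RPM for each of the 10 genes (vertical axis, percent) by age and type (t1 to t3), with exact 95% intervals as bars. Fos is above 10 RPM in 42.1% of cells or more outside P5 type 3, Jun falls from 90.9% to 15.4% across the P2 types, and the Hsp70 genes stay near 0.

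The number of members above 10 RPM in a cell summarises these shares. At E18 the median cell had 3 of the 10 genes, 45 of 82 cells had at least 3 (54.9%, 43.5 to 65.9%) and 10 of 82 had none. In P2 type 1, 14 of 22 cells had at least 3 (63.6%, 40.7 to 82.8%) and 0 of 22 had none. In P2 types 2 and 3 the cells with at least 3 were 11 of 31 (35.5%, 19.2 to 54.6%) and 2 of 13 (15.4%, 1.92 to 45.4%). With RPM over the count on genes, P2 type 2 had 18 of 31 (58.1%).

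Over P5 types 1 to 3, at least 3 were found in 61.8% (21 of 34 cells, 43.6 to 77.8%), 42.1% (8 of 19, 20.3 to 66.5%) and 4.55% of cells (1 of 22, 0.115 to 22.8%). No member was above 10 RPM in 12 of the 22 P5 type 3 cells (54.5%, 32.2 to 75.6%), against 4 of 34 in type 1 and 3 of 19 in type 2. The highest number in 1 cell was 8, at E18. Within P5 type 1 the share with at least 3 was 9 of 11 in set B, 4 of 11 in set C and 8 of 12 in set D, and at E18 it was 22 of 48, 6 of 9 and 17 of 25. In P5 type 3, 17 of the 22 cells were of set D, and within that set 8 of 17 had no member and 1 of 17 had at least 3.

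**Figure D3:**
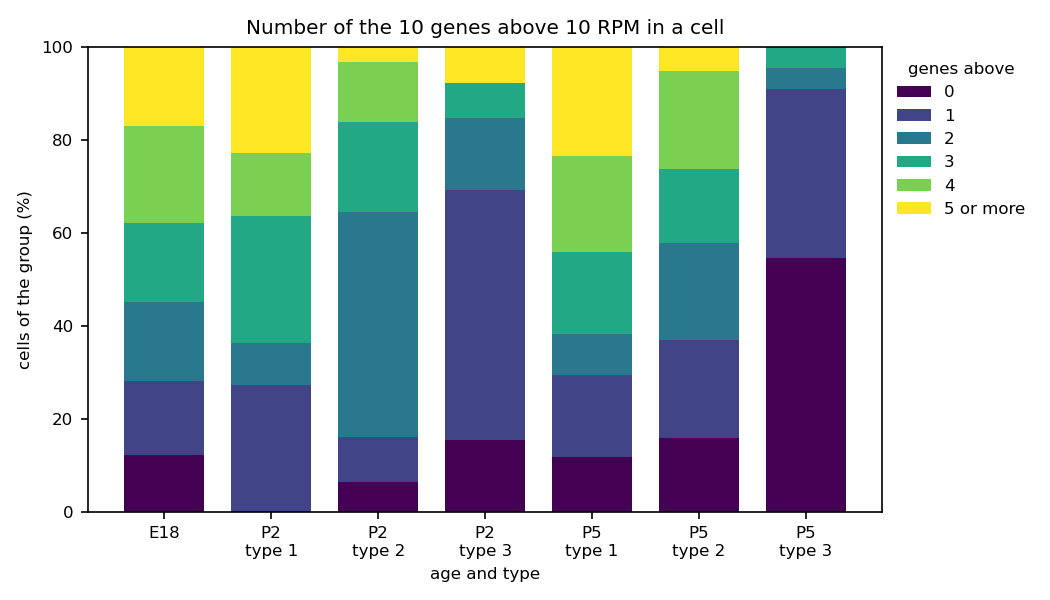
Number of the 10 genes above 10 RPM in a cell, as stacked shares of the cells of each age and type (vertical axis, percent). The darkest part, cells with none, is 54.5% of P5 type 3 and 0 of 22 in P2 type 1.

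Type 3 libraries also differed in quality. The median share of mapped read pairs on genes was 32.1% in P5 type 3, against 55.2% and 55.5% in P5 types 1 and 2, and the median count on genes was 2620270 against 5328260 and 5438460 read pairs. The median mitochondrial share of the count was 2.51% in P5 type 3 and 3.30% in P2 type 3, against 0.994 to 1.62% in the other 5 groups. The number of genes above 10 RPM had a median of 2102 in P5 type 3 against 2258 in type 1 and 2738 in type 2, and P2 type 3 had the fewest of the 7 groups, 1437 against 1834 and 2482 in P2 types 1 and 2. With RPM taken over the count on genes in place of mapped read pairs, 1 of 22 P5 type 3 cells had at least 3 members, as before, and after each cell was thinned to the depth of the shallowest cell, 0 of 22 did. The part of library quality in the type 3 values was not tested further.

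Markers of other cells were looked at because the sort was on a single reporter. At least 3 of 10 interneuron markers were above 10 RPM in 66 of 82 E18 cells, in 19 of 22, 25 of 31 and 10 of 13 cells of P2 types 1 to 3, and in 34 of 34, 19 of 19 and 21 of 22 cells of P5 types 1 to 3. At E18, 12 of 82 cells had at least 3 of 8 excitatory neuron markers above 10 RPM, and 7 of those 12 had Fos above it, against 41 of the 70 others. Their pooled levels were lower, at 57.5 RPM of Fos, 22.8 of Jun and 153 of Egr1 against 277, 123 and 564 RPM. At P5, 3 of 19 type 2 cells and 1 of 34 type 1 cells had at least 3 of 8 markers of astrocytes or radial glia, and 1 more type 2 cell had at least 3 of 7 of the oligodendrocyte lineage. No cell of any group reached 3 markers of microglia, endothelial cells or erythrocytes. The summed pooled levels of these 3 lists ran from 1.01 to 7.52 RPM, 2.96 to 9.54 RPM and 0 to 2.99 RPM over the 7 groups, each highest at E18, and the endothelial sum was 8.35 RPM in P5 type 3. In single cells the sum reached 418 RPM for the microglia list and 475 RPM for the endothelial list, both at E18. Tmem119 and Cldn5 were at 0 in every group, while some other markers of the same lists were not.

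Those 4 P5 type 2 cells included the highest Fos cell of the data. Their pooled levels were 3135 RPM of Fos, 522 RPM of Jun and 6468 RPM of Egr1, against 257, 35.9 and 537 RPM in the other 15 type 2 cells. Jun and Egr1 were above 10 RPM in 4 of 4 of them, and in 6 of 15 and 9 of 15 of the rest. The summed level of the astrocyte and radial glia markers reached 16667 RPM in P5 type 2 and 1664 RPM or less among P5 type 3 cells, with medians of 7.72 and 4.17 RPM.

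Each type was next set against the others of its age by pooled RPM with 1 RPM added, keeping only genes that passed 10 RPM in 25% or more of the cells of one side. A gene counted as called at a log2 difference of 1 or more in either direction. There is no test behind a call, and since the types were formed from these cells, the counts are descriptions to be read beside the share of all tested genes that was called.

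In P2 type 1, 4 of 6 tested members were called higher (Ier2 by 4.37, Atf3 by 3.28, Jun by 2.16 and Egr1 by 1.89 on the log2 scale), beside 15.6% of the 3211 genes tested. Jund was called lower, at -1.24, beside 22.5% of all genes, and Fos differed by -0.09. Ier2 and Atf3 passed the filter only through type 1, in 36.4% and 27.3% of its cells, so their place among the called genes follows from the filter, and Jund passed only through types 2 and 3. With a filter of 50% of cells, 1 of 2 tested members was called, Jun. Without the highest cell of the higher side all 5 calls held, with Atf3 at 1.81, Egr1 at 1.20 and Ier2 at 3.76. The Jund value was -0.45 with 10 RPM added and -0.75 with mean log2 values, and its call held under 6 of 9 alternatives. In P2 type 2, Jund was called higher by 1.02, a call that held under 2 of 9 alternatives, beside 24.1% of 3400 genes, and Egr1 (-1.61) and Jun (-1.45) were called lower, beside 11.2%. The Egr1 value was -0.50 with mean log2 values and -0.998 without the highest cell, and that call held under 6 of 9 alternatives. Jund passed the filter only through type 2. In P2 type 3, Jun was called lower at -3.48, beside 41.3% of 2935 genes, none of the 3 tested members was called higher, beside 15.7%, and Fos differed by -0.05. Jun and Egr1 passed the filter only through types 1 and 2. The Fos level of type 3 was 262 RPM in place of 434 RPM without its highest cell.

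At P5, type 3 stood apart. All 3 tested members were called lower, Jun at -6.74, Egr1 at -4.55 and Fos at -4.13, and none was called higher. Fos and Jun passed the filter only through types 1 and 2, so their calls follow in part from it. Of the 4081 genes tested, 43.6% were called lower and 12.0% higher, with a median of -0.74. With the total count on genes as the scale, that split was 28.5% lower and 26.6% higher, the median was -0.0040, and the same 3 members were still called lower. Within library set D, which held cells of all 3 types in number, Jun was at -6.41, Egr1 at -4.86 and Fos at -4.94. Without the P5 cells that carried at least 3 glial markers, an alternative chosen after the data were seen, the values were -6.56, -4.18 and -3.56.

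In P5 type 1, Jun (1.63) and Jund (1.40) were called higher among 5 tested members, beside 22.4% of 3940 genes, and none was called lower, beside 15.2%. All 3 of Jun, Jund and Fosb passed the filter only through type 1, and Jund was at 0.62 with 10 RPM added and at 0.82 with mean log2 values. Without library set B, Jun fell to 0.77 and Jund to 0.95, and within set D they were at 0.02 and -0.01, so neither gene was called without set B or within set D. Jun was at 3.83 within set B, 2.38 within set C, 3.20 without set D and 3.69 without cells with 3 markers of another type. Within set D, 3 of 6 tested members were called higher, all of them other than Jun and Jund. The share of all genes called within set D was not computed, so this count has no background beside it. In P5 type 2, Fos was called higher at 1.28, beside 25.4% of 4673 genes, and no member was called lower, beside 10.5%. Without its highest cell the Fos value was 0.11, and without the cells with glial markers it was -0.42.

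**Figure D4:**
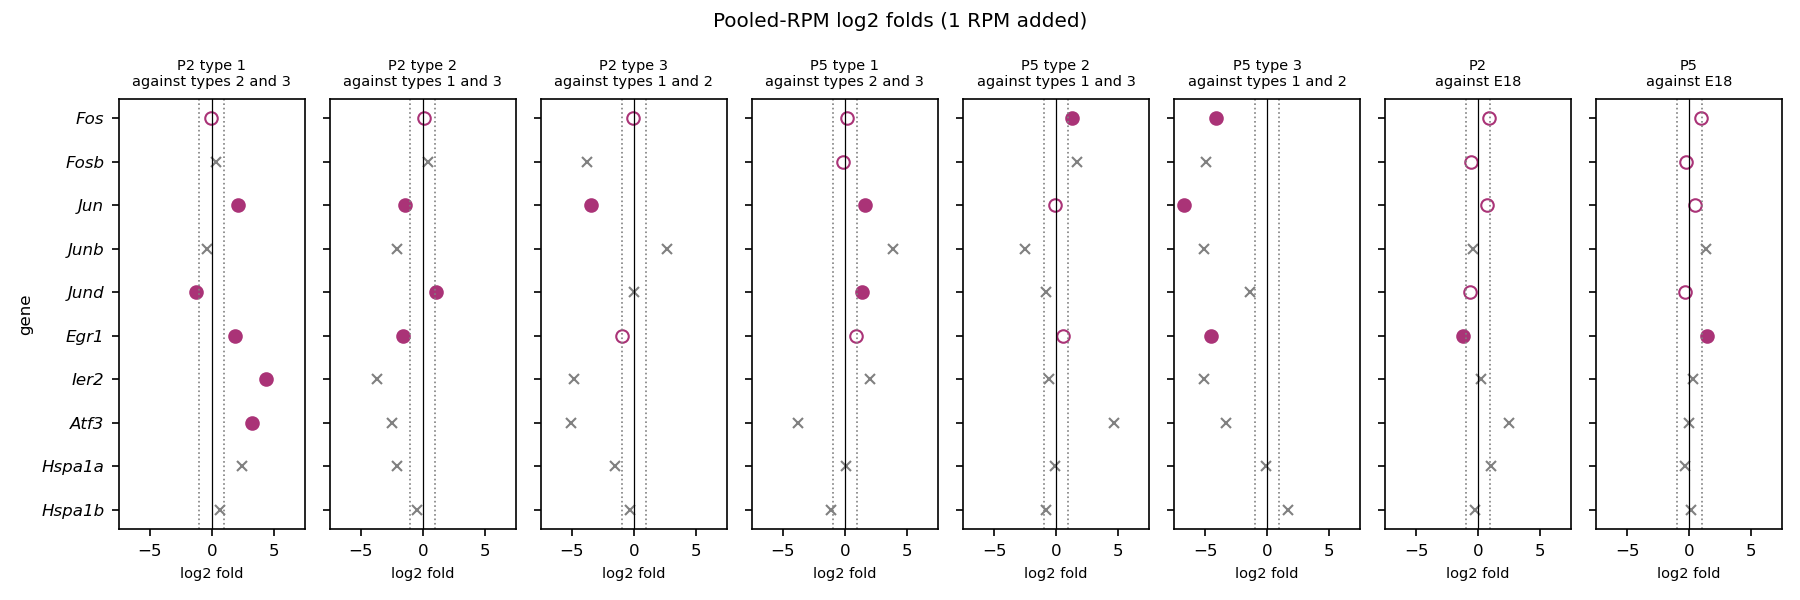
Log2 difference of pooled RPM (1 RPM added, horizontal axis) of each gene in each of the 8 comparisons, filled where called, open where tested and not called, and a grey cross where the gene did not pass the filter on low values. Dotted lines mark the threshold of 1, and the 3 filled points of P5 type 3 lie between -6.74 and -4.13.

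The ages were then set against E18, which both comparisons share. At P2, Egr1 was called lower at -1.20, beside 16.2% of 3664 genes, and none of the 5 tested members was called higher, beside 4.97%. Fos (0.88) and Jun (0.75) did not reach the threshold. At P5, Egr1 was called higher at 1.45, beside 6.73% of 3952 genes, and no member was called lower, beside 14.4%, while Fos fell just under the threshold with 1.00. Without library set D the P5 value of Egr1 was 0.57, and without the cells with 3 markers of another type it was 0.88. At P2 it was -0.91 without set B and -0.99 with the total count on genes as the scale.

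Fos-family and Jun-family members, whose proteins pair in AP-1, were counted in the same cells. Both families were above 10 RPM in 41 of 82 cells at E18 (38.7 to 61.3%), in 14 of 22, 19 of 31 and 4 of 13 cells of P2 types 1 to 3, and in 20 of 34, 7 of 19 and 1 of 22 cells of P5 types 1 to 3. The Fos family as a whole was so in 54 E18 cells, in 14, 25 and 10 cells of the P2 types, and in 22, 8 and 4 of the P5 types. The Jun family was so in 55, then 21, 23 and 5, and then 25, 12 and 1 cells. The joint counts were not set against those that these shares alone would give. In P2 type 3, 6 of 13 cells had the Fos family without the Jun family, and in P2 type 1, 7 of 22 had the Jun family without the Fos family. Jun was above 10 RPM in 62.5% of the P2 cells with Fos, near its share of 60.6% in all P2 cells, in 66.7% against 57.3% at E18, and in 75% against 41.3% at P5. Of P5 cells with Fos, 27 of 32 also had Egr1 (84.4%, against 60% of all P5 cells), and of those with Egr1, 27 of 45 had Fos (60%, against 42.7% of all). At P2, Egr1 was in 18 of 48 Fos cells (37.5%, near its 33.3% of all P2 cells) and Fos in 18 of 22 Egr1 cells (81.8%, against 72.7% of all).

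Over the single cells of an age, the median correlation of the members was highest at P5. There, Spearman's rho was above 0 in all 21 pairs of the 7 members that over 5% of cells held above 10 RPM, with a median of 0.396. The highest were Fos with Egr1 (0.634), Fos with Jun (0.587) and Fos with Fosb (0.529), and the lowest was Jund with Ier2 (0.195). At E18 the median over 28 pairs was 0.231, led by Jun with Egr1 (0.483) and Fos with Junb (0.447), and at P2 it was 0.169, led by Jun with Ier2 (0.407) and Jun with Atf3 (0.367). Fos and Jun, correlated at P5, were at -0.03 at P2 and 0.25 at E18.

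Over all pairs of genes under the same filter the median rho was 0.0208 at P5, 0.0376 at E18 and 0.0291 at P2. The share of pairs above 0.3 was 15 of 21 members' pairs (71.4%) against 1.32% of all pairs at P5, 7 of 28 (25%) against 1.14% at E18, and 2 of 28 (7.14%) against 1.75% at P2. Within single types of P5 the median over these members was 0.363 in type 1 (34 cells), 0.378 in type 2 (19 cells) and 0.0805 in type 3 (22 cells, 15 pairs), and over the P2 pairs it was 0.146, 0.0739 and 0.242 in P2 types 1 to 3. With the filter applied within each type, the medians were 0.268, 0.0245 and 0.409 in P2 types 1 to 3, 0.363 and 0.386 in P5 types 1 and 2, and 0.336 in P5 type 3, where 1 pair was left, so the lead of P5 did not hold in every type. In groups this small 5.16 to 18.4% of all pairs lay above 0.3. Within library sets at P5 it was 0.291 in B, 0.375 in C and 0.493 in D. These are descriptions over cells of pooled brains that share, within a set, a library label, and each point also carries its own library quality. The number of members above 10 RPM had a rho of 0.199, 0.236 and 0.241 with the number of genes detected at E18, P2 and P5, and of -0.126, 0.211 and 0.311 with mapped read pairs. With the share of read pairs on genes it was 0.325 at P5 (Jun alone 0.541), and with the mitochondrial share -0.328 at P2 (Jun alone -0.421). The part of the share of read pairs on genes and of the mitochondrial share was not tested. Given the number of genes detected, the median pair correlation was 0.387 at P5, 0.219 at E18 and 0.152 at P2.

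**Figure D5:**
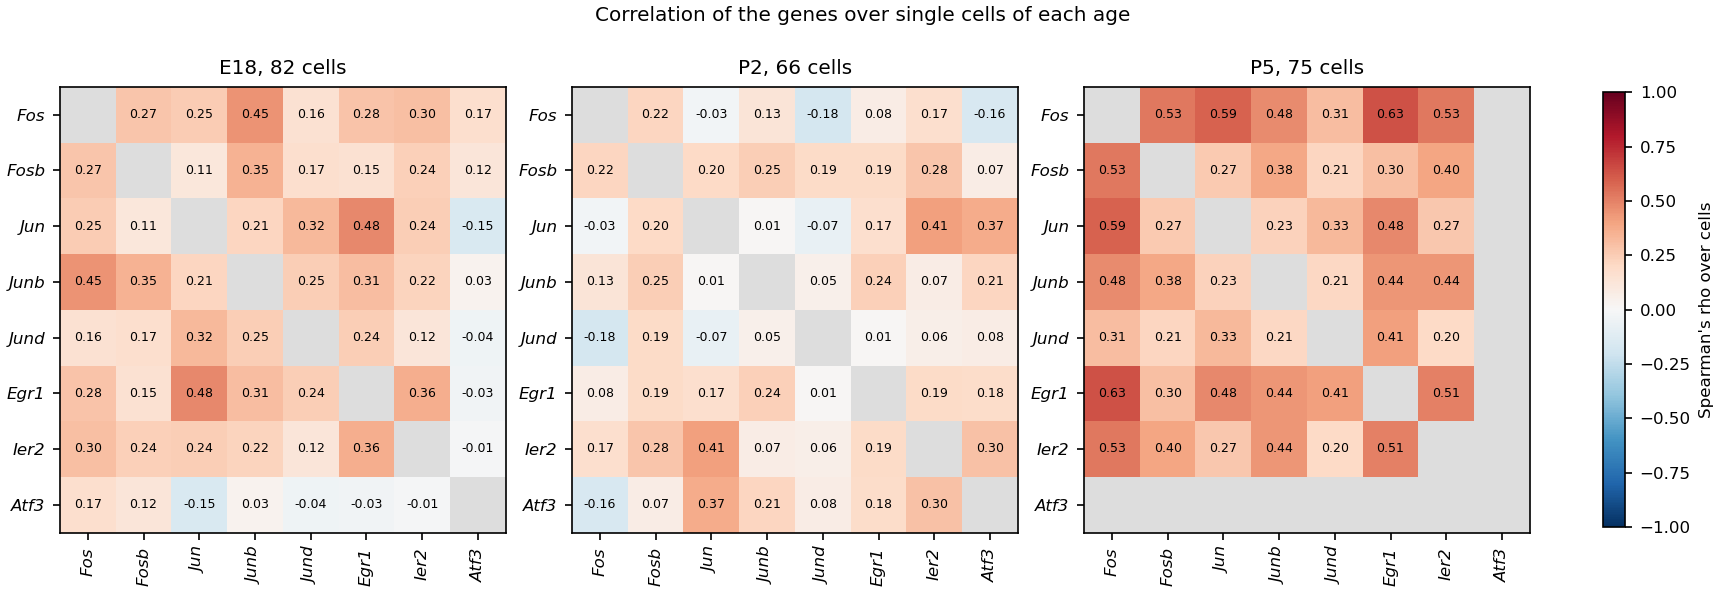
Spearman's rho over the cells of each age for each pair of members, with red above 0 and blue below, and grey where a member did not pass the filter (Atf3 at P5) or on the diagonal. The P5 panel is red throughout, from 0.195 to 0.634, and the P2 panel has 4 pairs below 0.

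Genes were ranked by their lowest rho with the number of members above 10 RPM over the 3 ages, among the 2112 genes other than the members that passed 10 RPM in 25% or more of cells at every age. The first was Dusp1, a phosphatase that switches off the kinases upstream of these genes, at 0.299 in E18, 0.337 in P2 and 0.480 in P5. Hsp90aa1 and Dnaja1, chaperones of the heat shock response, ranked 2 and 6, with lowest values of 0.252 and 0.191. Sumo2, Klf13 and Rps6 came between them (0.216, 0.208 and 0.204), followed by Luc7l, Fscn1, Ivns1abp and Ppp2r2a (0.185 to 0.184), and the median gene had -0.0527. The plain number of genes detected in a cell had a lowest rho of 0.199, above Dnaja1 and the genes ranked after it. The ranking was not adjusted for that number. For single members the leading genes were Qk for Fos (0.204), Map1b for Jun (0.268, with the constitutive chaperone Hspa8 at rank 3, 0.235), Rnd3 for Egr1 (0.230, with Dusp1 at rank 3, 0.188) and Rrn3 for Jund (0.248).

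A wider set of 92 matched early response and stress genes was followed in the same comparisons. In P5 type 3, 23 of 31 tested genes were called lower, beside 43.6% of all genes, and 1 higher, with a median of -1.52 against -0.74 over all genes. The other early transcription factors Nr4a1 and Nr4a2, orphan nuclear receptors of the early wave, were at 0.357 and 0.253 RPM against 112 and 58 RPM in types 1 and 2. Dusp1 was at 0.0173 RPM against 123 RPM, and Herpud1, of the unfolded protein response, was lower at -3.38. These 4 genes passed the filter only through types 1 and 2, so neither their values nor the count of the list are support for a lower level. With total counts on genes, where 28.5% of all genes were lower and 26.6% higher, 14 of the list were lower and 3 higher. With TMM, where 33.6% of all genes were lower and 21.4% higher, these were 16 and 2. All 5 tested early effectors were called lower. Of 10 tested heat shock genes 5 were, near the share of all genes.

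In P2 type 3, 16 of 30 tested genes were called lower (all genes 41.3%) and 2 higher (all genes 15.7%; median -1.79 against -0.58), with Klf6 at -4.70, Ppp1r15a at -4.25 and the chaperone Hspa8 at -4.18. The 2 higher were Homer1 (3.07), a synaptic scaffold with an activity-induced short form, and Nr4a2 (1.01). Nr4a2 was above 10 RPM in a smaller share of type 3 cells, 38.5% against 47.2% of types 1 and 2. Klf6, Ppp1r15a and Hspa8 passed the filter only through types 1 and 2. With DESeq2 size factors the split over all genes tested in this comparison was 28.3% lower and 34.7% higher in place of 41.3% and 15.7%, and 14 genes of the list were lower and 4 higher. With TMM these were 16 and 4, beside 31.3% of all genes lower and 30.1% higher. In P2 type 1, 4 of 32 were called higher, under the 15.6% of all genes. They were led by Ddit3 (4.31), the factor CHOP of the stress response in which Atf3 acts, which passed the filter only through type 1. Ppp1r15a (1.45), the feedback phosphatase subunit of that response, passed only through types 2 and 3, in 27.3% of their cells against 18.2% of type 1 cells. Over the unfolded protein and amino acid response list the summed level was 181 RPM in type 1 against 177 RPM. In type 1, 4 genes were called lower, again under the share of all genes (22.5%). Among them were Homer1 (-3.04) and Nr4a2 (-2.24), which both passed only through types 2 and 3.

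In P2 type 2, 6 of 33 were called higher, under the 24.1% of all genes, led by Crem (1.67), and none lower, beside 11.2%. Crem passed the filter only through type 2. With total counts or DESeq2 size factors 4 of the list were higher and 2 lower, and with TMM 4 and 3. Of all genes, 21.1, 20.8 and 20.4% were higher and 13.4, 13.2 and 14.2% lower on these scales. In P5 type 1, 9 of 31 were called higher (all genes 22.4%), with Elk4 (2.62), Nr4a1 (2.52), Btg1 (1.95) and Sik1 (1.81) first, and 6 lower (all genes 15.2%), among them the kinases Mapk3 (-1.71) and Mapk10 (-1.66). Elk4 and Nr4a1 passed the filter only through type 1, and Mapk3 and Mapk10 only through types 2 and 3. In P5 type 2, 9 of 31 were called higher (all genes 25.4%), led by Mapk10 (2.68) and Mapk9 (2.19), and Hspa5 (-1.42), the chaperone BiP, was called lower. Mapk9 passed the filter only through type 2. Against E18, 3 genes were called higher (all genes 4.97%) and 3 lower (16.2%) of 34 at P2, and 1 higher (6.73%) and 9 lower (14.4%) of 34 at P5. Btg1, an antiproliferative early gene, was the highest in both (1.68 and 2.03), and Fosl2, a Fos relative, was lower in both (-4.69 and -2.07). Fosl2 passed the filter only through E18.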

How the data were processed

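Gene counts were used as deposited. Alignment by the authors was to GRCm38 (TopHat2), and their counts were made on Ensembl genes with HTSeq 0.6.1, keeping cells that passed their depth and mapping filters. Use of strand is not given in the sources used here. RPM was the deposited count times the coefficient given in the labels of each cell. Gene names came from GENCODE M21.

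The members and gene lists were chosen with earlier results of these data known. Levels were pooled over cells. No test was made, because the brains of each age were pooled. A difference was called at a log2 value of 1 with 1 RPM added, keeping genes that passed 10 RPM in 25% or more of the cells of one side. From the wider lists, up to 4 genes per direction and comparison were named by size, and the genes most like the members by their lowest Spearman correlation over the ages. A gene that this rule would name is not reported here. Alternatives changed the threshold, pseudocount, filter, scale (edgeR 4.0.16 TMM, DESeq2 1.42.0), depth, cells and library sets. Python 3.11.15, scipy 1.17.1 and R 4.3.3 were used. Functions were tested on simulated data.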

Additional observations from a re-analysis of the deposited data

How the results depend on the processing

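No paired analysis was possible because cells carry no replicate numbers that pair them across groups and no test was made. Values within each library set stand in place of a fit blocked by set. In P5 type 3, Fos, Jun and Egr1 were called lower under all 16 alternatives, and Jun kept its call under all 9 in each P2 type. The Fos value of P5 type 3 ran from -8.55 to -1.35 over the alternatives, and from -4.17 to -3.41 outside those by library set. Sets B and C held only 2 and 3 cells of P5 type 3. Counts of called members depended on the filter. Without a filter they were 7 in P2 type 2, 6 in P2 type 3, 6, 4 and 9 in P5 types 1 to 3, and 3 (P2) and 2 (P5) against E18. Of all genes, 20.9% were then called higher and 15.2% lower in P2 type 2, and 10.4 and 35.1% in P2 type 3. Over P5 types 1 to 3 these shares were 15.4 and 19.2%, 16.9 and 16.5%, and 11.7 and 29.2%. Against E18 they were 10.6 and 15.7% (P2) and 10.2 and 14.5% (P5). With a filter of 50% of cells the counts of members were 1 in P2 types 1 and 2 and P5 type 1, and 0 in P5 type 2. Of all genes, 10.7 and 15.2% were then higher and lower in P2 type 1 and 17.5 and 5.86% in P2 type 2. In P5 types 1 and 2 the shares were 19.4 and 9.85%, and 21.0 and 5.25%. With 10 RPM added, P5 type 1 had 1. With mean log2 values, P2 type 3 had 2, P2 against E18 had 3 and P5 against E18 had 0. TMM and DESeq2 size factors gave 2 for both ages against E18, and total counts gave 2 at P5 and 0 in P5 type 2. Without the highest cell, P2 type 2 and P5 type 1 had 1 called member and P5 type 2 had 0. These counts show how far a setting moves the calls and are no result about the members.

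Library sets moved the counts further. The share of all genes called was not computed for these subsets of cells, so the counts of called members describe the settings only. Within set B they were 6 in P5 type 1 and 4 in P5 type 2 (0 higher, 4 lower, from 2 cells of that type), within set C 3 in P5 type 2 (1 higher, 2 lower, from 3 cells), and within set D 2 in P5 type 2 (both higher), 6 in P5 type 3 and 4 for P5 against E18. Without set B they were 1 in P5 type 1, 2 for P2 and 3 for P5 against E18. Without set C they were 4 in P5 type 1, 7 in P5 type 3 and 2 for P5 against E18. Without set D they were 4 in P5 type 2 (1 higher, 3 lower) and 0 for P5 against E18. Without cells with 3 markers of another type, chosen after seeing the data, they were 4 in P5 type 1, 2 in P5 type 2 (both lower) and 0 for P5 against E18. The sign of the Fos difference in P5 type 2 turned within set B (-8.38), without set D (-0.14) and without cells with markers of another type (-0.42), and that of Jund in P5 type 1 within set D (-0.0148). The cause was not tested.

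The share of cells with at least 3 members followed its threshold. With at least 1 read pair it was 92.7% at E18, 95.5, 93.5 and 46.2% in P2 types 1 to 3, and 91.2, 84.2 and 54.5% in P5 types 1 to 3. Above 1 RPM it was 70.7% at E18 and 86.4 and 67.7% in P2 types 1 and 2. Above 50 RPM it was 32.9% at E18, 36.4 and 16.1% in P2 types 1 and 2, and 0% in P5 type 3, where thinning also gave 0%. By total counts P2 type 2 had 58.1%. In set B the share was 81.8, 0 and 0% in P5 types 1 to 3, of only 11, 2 and 2 cells. In set C it was 66.7% at E18 (9 cells) and 36.4, 66.7 and 0% in P5 types 1 to 3 (11, 3 and 3 cells). In set D it was 68% at E18 (25 cells). The median pair correlation at P5 was 0.291 within set B and 0.0805 within type 3. With TMM, all genes split into 21.4% higher and 33.6% lower in P5 type 3, and 30.1% and 31.3% in P2 type 3. Thinning to the shallowest cell moved 1 of 70 shares of cells above 10 RPM.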
